A study of Mus musculus with 5 samples.

Results

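A list of 10 genes from the intestinal pathway that packs dietary fat into chylomicrons was followed in mouse intestinal organoids, which are epithelial cultures grown from the gut. The 10 genes were taken by name among the 18418 genes in the tables: the apolipoproteins Apoa1, Apoa4, Apob, Apoc2, Apoc3 and Apoe, the lipid transfer protein Mttp, the transcription factor Creb3l3, and the acyltransferases Dgat1 and Dgat2. Single cells were sorted into 384-well plates and profiled by SORT-seq, a plate method that counts unique molecular identifiers (UMIs) on tags near the 3' end of transcripts. The study compared organoids with different numbers of intact copies of Lkb1 (gene symbol Stk11), which encodes a protein kinase upstream of AMPK. Small intestinal organoids were of genotype WT, Lkb1 +/- (called het here) and Lkb1 -/-, and the last genotype was deposited as a library whose title carries the mark Bud and a library whose title carries the mark Cys. The labels leave both marks unexplained, and they are used as given. The fifth library was of fetal intestinal organoids of WT genotype. The protocol gives a medium with Egf, R-spondin1 and Noggin for all cultures. The number of clones, cultures and animals behind each library, and the fetal age, were not stated in the labels read here.

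Each group was 1 plate, so there were no replicates and no test of genotype was possible. Every interval in brackets is a 95% interval for counting error only and says nothing of the spread between cultures. Intervals of levels and ratios also leave out the spread between wells, since they treat UMIs as independent. Single wells could hold a large share of a gene's UMIs, such as 45.6% of those of Apoa1 in Bud. Overlap or separation of such intervals is to be read with that limit. The wells kept had at least 1000 UMIs outside spike-ins: 302 in WT, 351 in het, 318 in Bud, 359 in Cys and 371 in fetal, with 4035219 to 5865507 UMIs per library and medians of 10414 (Cys) to 14637 (fetal) UMIs per well. Kcnq1ot1, a nuclear RNA often read as a sign of damaged cells, took over 2% of the UMIs in some wells: 0.539% of the wells in fetal, 6.13% in Cys, 7.28% in WT, 13.5% in Bud and 17.1% in het. A pair of Cys wells held over 100000 UMIs each. The labelled tissue was checked against 16 enterocyte genes: their summed level was 3689 CPM (UMIs scaled to a library total of 1000000) in WT, 7049 in het, 1573 in Bud, 256 in Cys and 193.8 in fetal. Lct alone was at 0 in WT, 5 of the 16 were at 0 in Cys, and 7 were at 0 in fetal, Alpi, Sis and Fabp1 among them. Of the enterocyte sums, Vil1 alone gave 288 CPM in WT, 236 in Cys and 114 in fetal. A list of 8 fetal or regenerative epithelium genes summed to 131 CPM in WT, 164 in het, 545 in Bud, 11198 in Cys and 12997 in fetal, and 6 intestinal stem genes to 1948, 1615, 1842, 378 and 539.6 CPM. A list of 6 gastric genes summed to 5030 CPM in Cys and to at most 53.5 CPM elsewhere. Lists of immune and of mesenchymal and endothelial genes stayed at or below 26.8 and 3.10 CPM.

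Absorptive cells of the small intestine rebuild triglycerides from absorbed fatty acids, with DGAT1 and DGAT2 adding the last acyl chain. The fat is loaded by the microsomal transfer protein MTTP onto apolipoprotein B in the endoplasmic reticulum, and the growing particle takes up apolipoproteins A-I, A-IV and C before it leaves the cell as a chylomicron. CREB3L3 is a membrane-bound factor of the endoplasmic reticulum that is cleaved to enter the nucleus and is known to act on apolipoprotein genes in liver and gut.

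The members sit at 7 places in the genome (GRCm38, GENCODE M21). Apoa1 (chr9:46228580-46230466, forward), Apoc3 (chr9:46232933-46235636, reverse) and Apoa4 (chr9:46240696-46243459, forward) lie within 14880 bases of each other, and Apoc2 (chr7:19671579-19677941, reverse) and Apoe (chr7:19696109-19699188, reverse) within 27610 bases. Apob is at chr12:7977648-8016835 (forward), Mttp at chr3:138089854-138144968 (reverse), Creb3l3 at chr10:81084324-81098874 (reverse), Dgat1 at chr15:76502015-76511953 (reverse) and Dgat2 at chr7:99153658-99182719 (reverse). Mttp shares 457 exon bases with Trmt10a on the opposite strand, which had 55 to 141 UMIs per library. Mttp also overlaps Gm43691 and Apoa4 overlaps Gm10680 and Gm47528 on the opposite strand, and Apoc2 overlaps Gm44805 on its own strand, none of them listed in any table. How strand was handled is not stated in the labels, and levels of these 3 members could include reads of their neighbours.

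A pair of promoters is shown because their genes parted in the Cys library: Apoa1 was nearly absent there, whereas Apob was read at close to the level of Bud. RefSeq (GRCm38.p6) windows of 250 bases before to 50 after a start were given for 7 of the 10 members, and the parts upstream of the first annotated exon base are printed, read 5′ to 3′ on the gene's strand. The Apoa1 stretch is chr9:46228380-46228579 (forward) and the Apob stretch chr12:7977427-7977647 (forward), where capitals mark the letters TATAAA.
Apoa1: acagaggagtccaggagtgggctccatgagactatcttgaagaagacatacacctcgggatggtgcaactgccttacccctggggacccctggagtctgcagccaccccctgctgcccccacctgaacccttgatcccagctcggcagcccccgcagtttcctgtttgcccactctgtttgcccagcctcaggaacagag
Apob: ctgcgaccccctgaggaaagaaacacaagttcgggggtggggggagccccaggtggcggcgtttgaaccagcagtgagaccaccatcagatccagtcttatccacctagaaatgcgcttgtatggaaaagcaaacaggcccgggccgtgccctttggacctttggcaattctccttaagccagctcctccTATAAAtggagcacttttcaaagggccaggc
Both strands of the windows of the 7 members were searched for 6 motifs. The letters TATAAA were found in Apob, starting 60 bases before the RefSeq start, and in Apoe, and in 13.6% of 32851 promoters of the same length. None of the 7 held CAAAGTCCA, a form of the HNF4 motif found in 0.475% of all promoters, or GTTAATNAT, a form of the HNF1 motif found in 0.801%. None held TGACGTG, a CRE-like motif found in 2.01% of all promoters. Nor did any hold the CDX letters TTTATGG, found in 2.75%. The GATA letters AGATAAG, found in 3.04%, were also missing from the 7. These are exact matches of letters within the windows only, and other forms of each motif were not searched for. Some windows, such as those of Apoa4, Apoc2 and Mttp, began within an annotated exon.

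Together the 10 genes gave 733 CPM in WT, 1045 in het, 287 in Bud, 82.9 in Cys and 46.9 in fetal. All 10 had a UMI in WT, het and Bud, 9 in Cys (Apoc2 had none) and 5 in fetal, where Apoa1, Apob, Apoc2, Apoc3 and Creb3l3 had none. A summed level does not part the number of cells with a transcript from the amount in each, and both are given further on for some of the members.

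**Figure D1:**
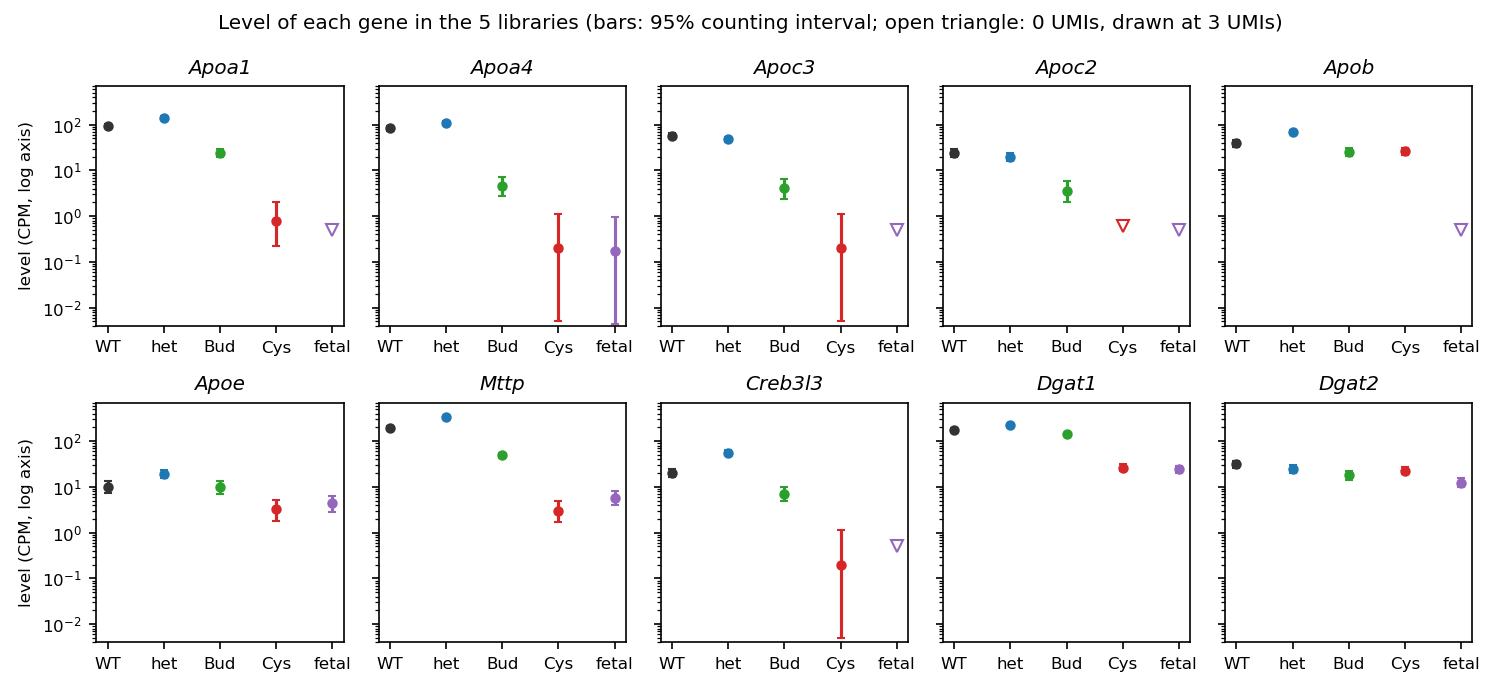
Level of each of the 10 genes (CPM, log axis) in the 5 libraries, with bars for the 95% counting interval and open triangles where a library had 0 UMIs, drawn at the level of 3 UMIs. Apoa1, Apoa4, Apoc3, Apoc2, Mttp and Creb3l3 stand at 3.01 CPM or less in Cys, while Apob is 26.5 CPM in Cys and at 0 UMIs in fetal.

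Apoa1 encodes the main protein of high density lipoproteins and a surface protein of chylomicrons. It was read at 92.2 CPM for WT (83.1 to 102), 141 for het (130 to 153), 24.5 for Bud (20.02 to 29.7), 0.803 for Cys (0.219 to 2.06) and with no UMI for fetal. Its order was het, WT, Bud, Cys and fetal, and only the intervals of Cys and fetal overlapped. Apoa4, a gut apolipoprotein induced by fat feeding, stood at 82.5 CPM for WT (73.9 to 91.9), 109 for het (99.7 to 119), 4.52 for Bud (2.72 to 7.07), 0.201 for Cys (1 UMI) and 0.1705 for fetal (1 UMI). By summed level het, WT and Bud thus took the same order for Apoa4 as for its neighbour Apoa1, with a wider gap between WT and Bud. With equal weight for every well Apoa4 stood at 89.0 CPM in het and 97.9 in WT. On 1 UMI each, Cys and fetal could not be ordered.

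Apoc3, an inhibitor of the clearance of triglyceride-rich particles, was at 57.2 CPM for WT (50.1 to 65.1), 47.6 for het (41.3 to 54.5), 4.05 for Bud (2.36 to 6.48), 0.201 for Cys (1 UMI) and 0 for fetal. Apoc2, the activator of lipoprotein lipase, was at 24.0 CPM for WT (19.5 to 29.3), 19.8 for het (15.9 to 24.4), 3.57 for Bud (1.999 to 5.89) and 0 for Cys and fetal. Neither C apolipoprotein separated WT from het, whose intervals overlapped, and both dropped away in Bud.

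Apob, the scaffold protein of chylomicrons, followed another order. Its level was 38.9 CPM for WT (33.1 to 45.5), 69.2 for het (61.6 to 77.4), 25.5 for Bud (20.9 to 30.8), 26.5 for Cys (22.2 to 31.4) and 0 for fetal, where 0 of 371 wells allows a share of up to 0.809% of wells with a UMI by the limit of 3 counts (0.989% by the Clopper-Pearson interval). The Bud and Cys levels overlapped, and Cys and fetal stood far apart. Apoe, a receptor ligand made by many tissues, was low throughout: 10.2 CPM for WT (7.29 to 13.8), 19.3 for het (15.4 to 23.9), 9.76 for Bud (7.01 to 13.2), 3.21 for Cys (1.84 to 5.22) and 4.43 for fetal (2.90 to 6.49). The WT and Bud levels of Apoe overlapped, as did those of Cys and fetal.

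Mttp was read at 197 CPM for WT (184 to 211), 336 for het (319 to 353), 49.1 for Bud (42.6 to 56.2), 3.01 for Cys (1.69 to 4.97) and 5.80 for fetal (4.01 to 8.10). Only Cys and fetal overlapped. Creb3l3 was at 20.3 CPM for WT (16.2 to 25.2), 56.4 for het (49.6 to 63.9), 7.14 for Bud (4.82 to 10.2), 0.201 for Cys (1 UMI) and 0 for fetal. Its order of het, WT and Bud was that of Apoa1.

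The acyltransferases were kept further down the series. Dgat1 stood at 179 CPM for WT (166 to 192), 221 for het (208 to 236), 140.5 for Bud (129 to 152), 26.1 for Cys (21.8 to 31.0) and 24.0 for fetal (20.2 to 28.4). The Dgat1 intervals of WT, het and Bud were apart from each other and well above those of Cys and fetal, which overlapped. Dgat2, the second enzyme of the same step, was at 31.5 CPM for WT (26.2 to 37.4), 25.0 for het (20.6 to 30.2), 18.1 for Bud (14.3 to 22.7), 22.7 for Cys (18.7 to 27.3) and 12.4 for fetal (9.76 to 15.6). Neighbours in the Dgat2 order WT, het, Cys, Bud and fetal overlapped throughout.

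To set these differences beside those of other genes, a gene with at least 10 UMIs over both libraries counted as called if its CPM differed by 1.5-fold or more in either direction and the interval left out 1. The comparisons with WT share that library, so they are given side by side and are not independent of each other.

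**Figure D2:**
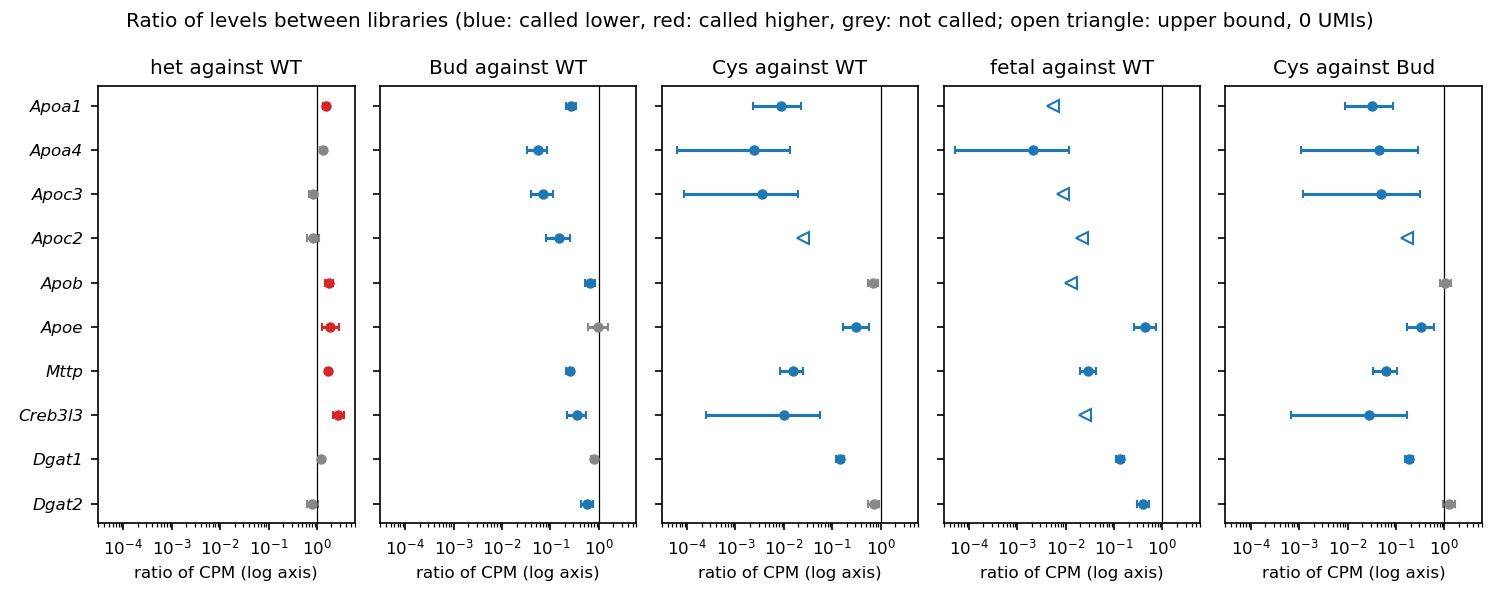
Ratio of CPM (log axis) of each gene in 5 comparisons, with bars for the 95% counting interval, blue for called lower, red for called higher, grey for not called, and open triangles for an upper bound where the first library had 0 UMIs. Apob and Dgat2 sit near 1 in Cys against Bud, where the other 8 genes are called lower.

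In het against WT, 5 of the 10 were called higher, where 8.43% of 11652 genes tested were, and none lower, where 8.83% were. Creb3l3 was 2.78-fold higher (2.15 to 3.61), Apoe 1.90-fold (1.30 to 2.83), Apob 1.78-fold (1.46 to 2.17), Mttp 1.70-fold (1.56 to 1.86) and Apoa1 1.53-fold (1.35 to 1.75). The ratio was 1.32 for Apoa4 (1.15 to 1.53), 1.24 for Dgat1 (1.12 to 1.36), 0.831 for Apoc3 (0.686 to 1.01), 0.823 for Apoc2 (0.609 to 1.11) and 0.795 for Dgat2 (0.610 to 1.03). The median log2 ratio, after adding 10 CPM to each level, was 0.45 for the members and -0.02 for all genes tested. At a 2-fold threshold only Creb3l3 of the 10 was called, and the share of all genes called at that threshold was not computed. Apoa1 lost its call when wells rich in Kcnq1ot1 (ratio 1.47), or wells under 2000 (1.49) or 5000 UMIs (1.36), were left out. With equal weight for every well only 2 of the 5, Creb3l3 (2.27) and Apoe (2.87), had a ratio of at least 1.5, against 1.46 for Apoa1, 1.38 for Apob and 1.25 for Mttp. Under that weighting the ratio was 0.909 for Apoa4, 0.606 for Dgat2 and 0.403 for Apoc3. The enterocyte list moved the same way, with 7049 CPM against 3689, and its part in the result was not tested.

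In Bud against WT, 8 of the 10 were called lower, where 8.67% of 11541 genes were, and none higher, where 5.79% were. Apoa4 was 18.2-fold lower (11.5 to 30.7), Apoc3 14.1-fold (8.64 to 24.7), Apoc2 6.73-fold (3.89 to 12.5), Mttp 4.02-fold (3.44 to 4.70), Apoa1 3.76-fold (3.01 to 4.72), Creb3l3 2.84-fold (1.85 to 4.48), Dgat2 1.74-fold (1.30 to 2.34) and Apob 1.53-fold (1.19 to 1.97). Dgat1 had a ratio of 0.785 (0.703 to 0.877) and Apoe one of 0.961 (0.608 to 1.52). The median log2 ratio was -1.07 for the members and -0.04 for all genes. Apob stood at the edge of the threshold and lost its call under TMM scaling (ratio 0.677), median-of-ratios scaling (0.672) and without wells rich in Kcnq1ot1 (0.696), and its ratio was 0.678 with equal weight for every well. Without the highest well the ratio of Apoa4 was 0.0240. With equal weight the ratio of Apoa1 was 0.592 and that of Apoe 1.60. Against het in place of WT, 9 of the 10 were called lower, where 11.7% of genes were and 8.94% higher, and Dgat2 was the exception. The enterocyte list was 1573 CPM in Bud and 3689 in WT, and its part in the result was not tested.

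In Cys against WT, 8 of the 10 were called lower, where 22.0% of 11782 genes were, and none higher, where 17.6% were. Apoa1 was 115-fold lower (44.5 to 424), Mttp 65.4-fold (39.4 to 117), Dgat1 6.86-fold (5.68 to 8.33) and Apoe 3.16-fold (1.74 to 6.04). Apoc2, with no UMI in Cys, was at least 39.9-fold lower against a floor of 3 UMIs. On 1 UMI each, the ratio was 0.00243 for Apoa4 (6.14e-05 to 0.0136), 0.00351 for Apoc3 (8.84e-05 to 0.0197) and 0.00988 for Creb3l3 (0.000247 to 0.0566). Apob had a ratio of 0.681 (0.536 to 0.864) and Dgat2 one of 0.721 (0.554 to 0.936), neither called at this fold. With equal weight for every well the ratio of Creb3l3 was 0.0801, still on 1 UMI, and that of Apoe was 0.528. The median log2 ratio was -2.08 for the members and -0.06 for all genes. Against het, 9 were called lower, where 21.3% of genes were, with Apob 2.61-fold lower (2.12 to 3.23) and Dgat2 at a ratio of 0.906 (0.691 to 1.19). Enterocyte genes were at 256 CPM, fetal or regenerative genes at 11198 and gastric genes at 5030 in Cys, against 3689, 131 and 3.22 in WT, and their part in the result was not tested.

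In fetal against WT, all 10 were called lower, where 22.3% of 12534 genes were. Members without a UMI in fetal were at least 180-fold (Apoa1), 112-fold (Apoc3), 76.1-fold (Apob), 47.0-fold (Apoc2) and 39.7-fold (Creb3l3) lower. Apoa4, on 1 UMI, had a ratio of 0.00207 (5.22e-05 to 0.0116). Mttp was 34.0-fold lower (24.1 to 49.4), Dgat1 7.44-fold (6.21 to 8.98), Dgat2 2.53-fold (1.88 to 3.42) and Apoe 2.29-fold (1.37 to 3.90). The median log2 ratio was -2.38 for the members and 0.06 for all genes. With equal weight for every well the ratio of Apoe was 0.863. Against het all 10 were lower too, where 21.9% of genes were. The enterocyte list was 193.8 CPM in fetal and 3689 in WT, the fetal or regenerative list 12997 and 131, and their part in the result was not tested.

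The Lkb1 -/- libraries were also compared with each other. In Cys against Bud, 8 of the 10 were called lower, where 19.5% of 11766 genes were, and none higher, where 19.2% were. Apoa1 was 30.5-fold lower (11.6 to 114), Mttp 16.3-fold (9.65 to 29.6), Dgat1 5.38-fold (4.45 to 6.56) and Apoe 3.04-fold (1.67 to 5.80), and Apoc2 at least 5.93-fold lower. Apoa4, Apoc3 and Creb3l3 rested on 1 UMI in Cys against 19, 17 and 30 in Bud. With equal weight for every well the ratio of Creb3l3 was 0.312. Requiring 50 UMIs over both libraries left 4 calls of the 8, those of Apoa1, Mttp, Dgat1 and Apoe. Apoa4, Apoc2, Apoc3 and Creb3l3 then had too few UMIs to be called, and the share of all genes under that minimum was not computed. Apob had a ratio of 1.04 (0.800 to 1.35) and Dgat2 one of 1.25 (0.929 to 1.70). The median log2 ratio was -0.55 for the members and -0.03 for all genes, with 10 CPM added to levels that were often below 10. The enterocyte list was 256 CPM in Cys and 1573 in Bud, the fetal or regenerative list 11198 and 545, the gastric list 5030 and 30.0, and their part in the result was not tested.

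Cys and fetal, both low in most members, were apart in Apob. With 132 UMIs in Cys and 0 in fetal, Apob was at least 51.8-fold higher in Cys, and Dgat2 was 1.82-fold higher (1.35 to 2.48), where 16.0% of 12273 genes were called higher. Mttp was 1.93-fold lower (1.02 to 3.80), where 28.6% of genes were called lower. Dgat1 (ratio 1.09, 0.849 to 1.39) and Apoe (0.725, 0.363 to 1.40) were not called, and the other 5 members had too few UMIs to be measured.

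The members were spread over wells in different ways. The unthinned shares of wells with a UMI were 58.3% in WT, 57.8% in het, 18.6% in Bud, 3.90% in Cys and 7.55% in fetal for Mttp. For Dgat1 they were 62.9%, 58.1%, 56.0%, 24.5% and 26.7%. After every well was thinned to 1000 UMIs, so that depth was equal, the share for Mttp was 14.2% for WT (10.5 to 18.7), 18.2% for het (14.3 to 22.7), 3.14% for Bud (1.52 to 5.71), 0.279% for Cys and 1.62% for fetal. The thinned share for Dgat1 was 15.6% for WT (11.7 to 20.2), 14.0% for het (10.5 to 18.0), 12.9% for Bud (9.41 to 17.1), 3.90% for Cys (2.15 to 6.46) and 1.89% for fetal (0.762 to 3.85). Bud therefore overlapped WT in its share of Dgat1 wells and not in its share of Mttp wells.

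Apoa1 and Apoa4 were found in fewer wells than Mttp and Dgat1, and in WT their mean amount in wells with a UMI was larger. Apoa1 had a UMI in 15.2% of the WT wells, 23.4% for het, 3.77% for Bud and 1.11% for Cys, and 5.63% (3.31 to 8.86), 7.98% (5.37 to 11.3), 1.57% (0.512 to 3.63) and 0% after thinning, where 0 of 359 Cys wells allows a share of up to 0.836% by the limit of 3 counts (1.02% by the Clopper-Pearson interval). Wells with a UMI of Apoa1 held a mean of 8.09 of them in WT, 7.57 in het and 8.58 in Bud, against 1.00 in Cys. In WT, het and Bud the means were 5.74, 8 and 3.8 for Apoa4 and 4.52, 7.27 and 3.49 for Mttp. For Dgat1 they were 3.8, 4.77 and 3.31. Mttp in het was thus close to Apoa1 and Apoa4, and Apoa4 in Bud was close to Mttp and Dgat1. The single highest well held 32.0% of the Apoa1 UMIs of WT, 18.2% of het and 45.6% of Bud. Apoa4 in Bud was likewise carried by 5 wells, of which 1 held 63.2% of its UMIs.

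Apob lay at low amounts in many wells. It had a UMI in 28.15% of the WT wells, 36.8% for het, 18.6% for Bud and 22.0% for Cys, with means of 1.85, 2.36, 1.81 and 1.67 UMIs in those wells. After thinning its shares were 2.98% (1.37 to 5.58), 5.13% (3.07 to 7.98), 1.57% (0.512 to 3.63) and 1.67% (0.616 to 3.60). In Cys the highest count was 9 UMIs of Apob, or 6.82% of them, reached in the well of 452137 UMIs and in a well of 22211 UMIs. Without the wells over 100000 UMIs the ratio of Apob in Cys to WT was 0.716.

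Cells with many members at a time were found in WT, het and a few Bud wells. At least 5 of the 10 genes had a UMI in 19.2% of WT wells (14.9 to 24.1), 20.8% of het (16.7 to 25.4) and 3.77% of Bud wells (1.96 to 6.50), and in no Cys or fetal well. The most in any well was 9 in WT, 10 in het, 8 in Bud, 4 in Cys and 3 in fetal. At a depth of 1000 UMIs per well the shares with 5 or more were 2.32% in WT, 1.99% in het and 0.314% in Bud. The WT well richest in members held 221 member UMIs of 21197, among them 119 of Apoa1, 25 of Apoa4, 14 of Apoc3 and 45 of Mttp. The richest het well held 405 of 40428, with 113 of Apoa1, 85 of Apoa4 and 100 of Mttp. The richest Bud well held 114 of 16080, with 8 of Apoa1, 12 of Apoa4, 16 of Apob, 38 of Mttp and 30 of Dgat1. That Bud well also held 226 UMIs of Sis, a brush border disaccharidase, and none of Fabp1, the fatty acid binding protein that gave 64 to 174 UMIs in the 3 richest WT wells.

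**Figure D3:**
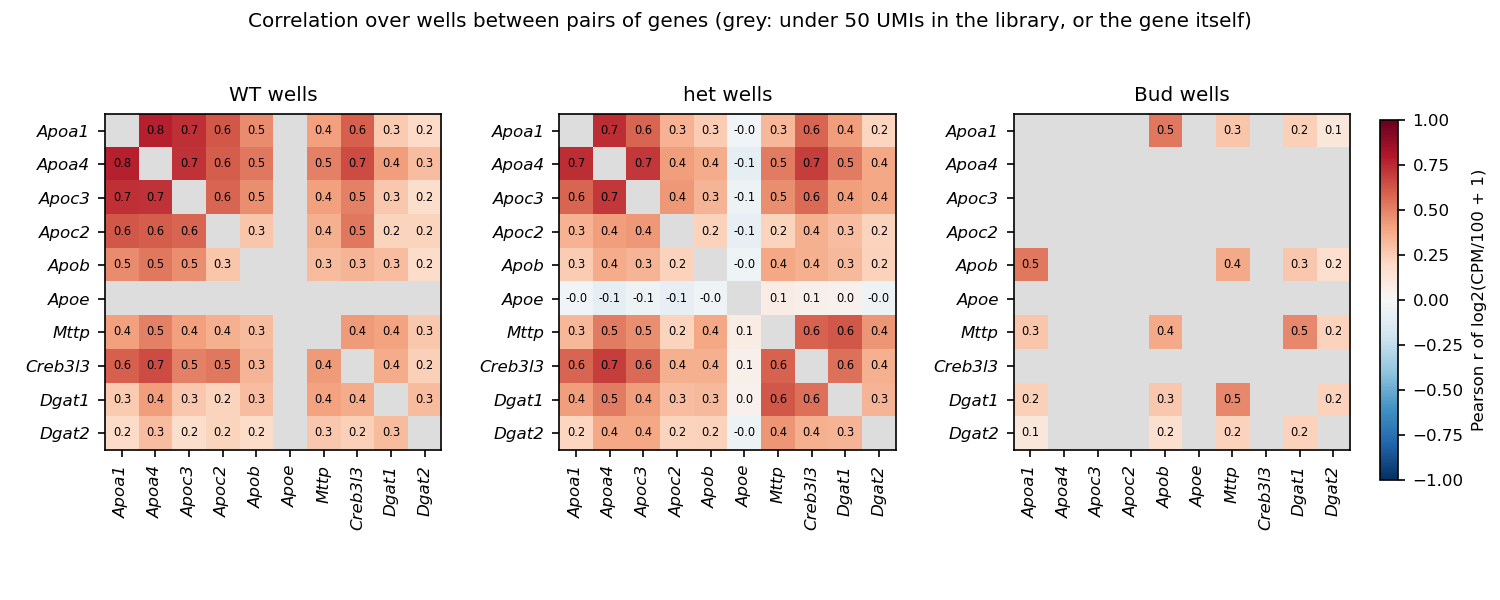
Pearson correlation over the wells of WT, het and Bud between pairs of the 10 genes, on log2(CPM/100 + 1), with grey for genes under 50 UMIs in that library. The block of Apoa1, Apoa4 and Apoc3 reaches 0.78 in WT and 0.74 in het, and the row of Apoe in het stays between -0.09 and 0.07.

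Co-expression is given as a description over the wells of 1 library, which share their plate and differ in depth. In WT the chromosome 9 neighbours went together: r was 0.78 for Apoa1 with Apoa4, 0.73 for Apoa1 with Apoc3 and 0.73 for Apoa4 with Apoc3 over 302 wells. By rank the first pair gave a Spearman rho of 0.43. In het the same pairs gave 0.74, 0.58 and 0.71 over 351 wells. Creb3l3 correlated with Apoa4 at 0.65 in WT and 0.69 in het. Mttp and Dgat1 correlated at 0.41 in WT and 0.62 in het, and at 0.48 in Bud. Apoe had 50 UMIs or more only in het among these 3 libraries, and its r with the other 9 members ran from -0.09 to 0.07. In Bud, Apoa1 correlated with Apob at 0.52, and with Mttp at 0.28, a value that was -0.03 without the 5 wells that held the most member UMIs. In Cys the pairs of Apob, Dgat1 and Dgat2 gave 0.00 to 0.07, and in fetal Dgat1 with Dgat2 gave 0.00.

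Shared detection at equal depth showed the same pattern. Of the 17 thinned WT wells with a UMI of Apoa1, 58.8% (32.9 to 81.6) also had Apoa4, against 2.81% (1.22 to 5.46) of the 285 wells without Apoa1. In het the shares were 50.0% of 28 wells (30.6 to 69.4) and 3.10% of 323 (1.49 to 5.62). Of the 64 het wells with Mttp, 32.8% (21.6 to 45.7) had Dgat1, against 9.76% (6.58 to 13.8) of those without.

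Genes most like a member over wells, named where r was at least 0.3, were often other genes of the enterocyte list or other members. In WT, Apoa4 was most like Apoa1, Rbp2 (0.77), Apoc3 and Fabp1 (0.69), and Mttp was most like Fabp1 (0.65), Adh1 (0.55) and Fmo5 (0.54) among 8205 genes compared. Dgat1 was most like Alpi (0.53), the brush border phosphatase, and Dgat2 most like Ces1f (0.41). In het, Mttp was most like the carboxylesterases Ces2a (0.74) and Ces2e (0.72), and Creb3l3 most like Fabp1 (0.71) and Rbp2 (0.71). In Bud, Sis led for Mttp (0.73) and Dgat1 (0.59), followed by Bche (0.67 and 0.51). Apoe in het had Psmd9 (0.33) and Ankhd1 (0.31) as its nearest genes, neither of them an enterocyte marker. In Cys no gene reached 0.3 with Apob, Dgat1 or Dgat2, and in fetal none did with Dgat1 or Dgat2. The other members had too few UMIs in these libraries to be compared.

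**Figure D4:**
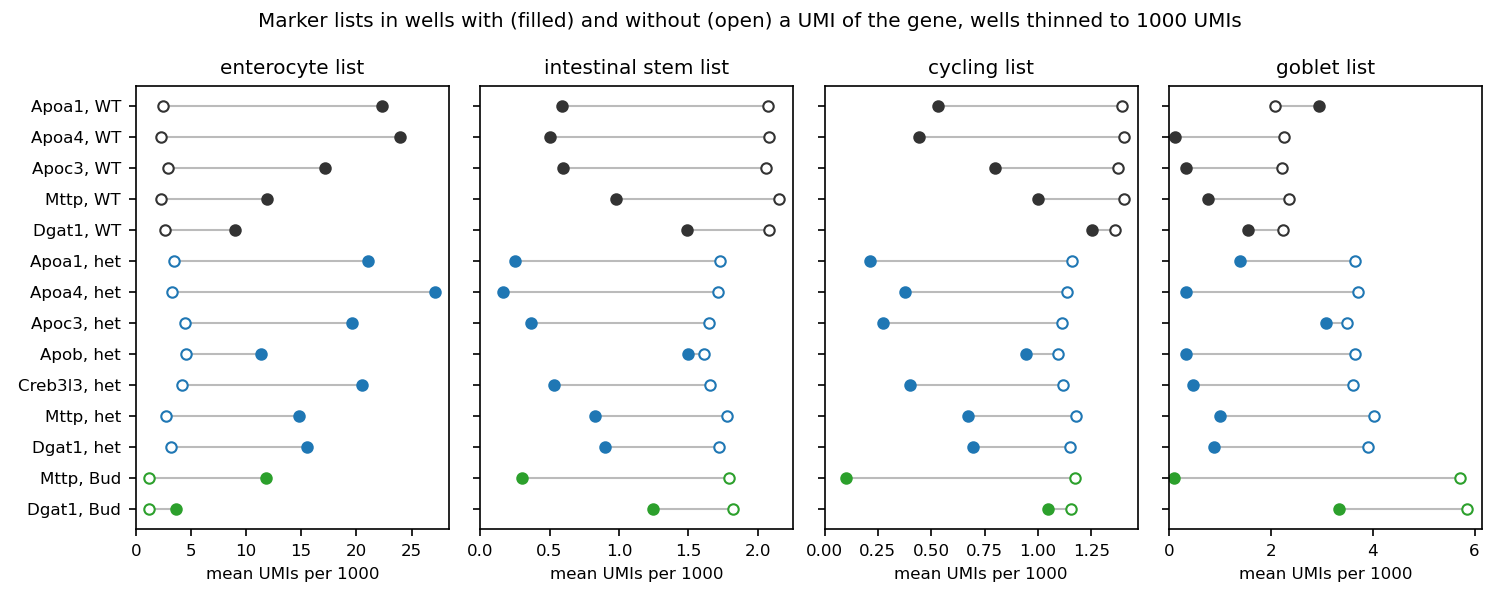
Mean UMIs of 4 marker lists per well, after thinning to 1000 UMIs, in wells with (filled) and without (open) a UMI of the gene named at the left, for WT (black), het (blue) and Bud (green). In the enterocyte panel every filled point lies to the right of its open point, such as 24.0 against 2.33 for Apoa4 in WT, and in the stem panel every filled point lies to the left.

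Marker lists were counted in the same thinned wells. WT wells with Apoa4 held a mean of 24.0 enterocyte UMIs per 1000, against 2.33 in wells without, and 0.500 against 2.08 stem cell UMIs. For het and Apoa4 the enterocyte means were 27.1 and 3.28, and the stem cell means 0.167 and 1.71. Wells with Mttp held 11.9 enterocyte UMIs against 2.25 in WT, 14.8 against 2.70 in het and 11.8 against 1.18 in Bud. Goblet UMIs were lower in Mttp wells, at 0.767 against 2.36 in WT, 1.00 against 4.03 in het and 0.100 against 5.71 in Bud. Apoa1 in WT had a mean of 2.94 goblet UMIs in wells with it and 2.08 in wells without, although 3 of its 17 wells (17.6%) had any goblet UMI, against 30.2% of wells without it. For Dgat1 the enterocyte means were 9.02 and 2.63 in WT, 15.5 and 3.19 in het, and 3.61 and 1.20 in Bud. In Cys, wells with Dgat1 had 0.143 enterocyte UMIs and those without 0.261.

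Levels were then compared in wells with a UMI of both Alpi and Sis, a choice made after these data were seen. Such wells were 37 for WT (12.3%, 8.77 to 16.5), 96 for het (27.4%, 22.8 to 32.3), 9 for Bud (2.83%, 1.30 to 5.30), 2 for Cys and 0 for fetal. At 1000 UMIs per well, either gene was found in 16.2% of WT wells (12.3 to 20.9), 27.1% of het (22.5 to 32.0), 5.66% of Bud (3.39 to 8.80), 0.557% of Cys and no fetal well. The wells with both genes were deeper than the rest, with medians of 16684 against 11594 UMIs in WT, 17530.5 against 8639 in het and 14350 against 11059 in Bud. Alpi and Sis were themselves at 77.6 and 346 CPM in WT, 278 and 928 in het and 15.2 and 127 in Bud. The rule therefore need not take like cells in each library. The 2 genes also went with some members over wells, so levels in the chosen wells are not independent of the choice.

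**Figure D5:**
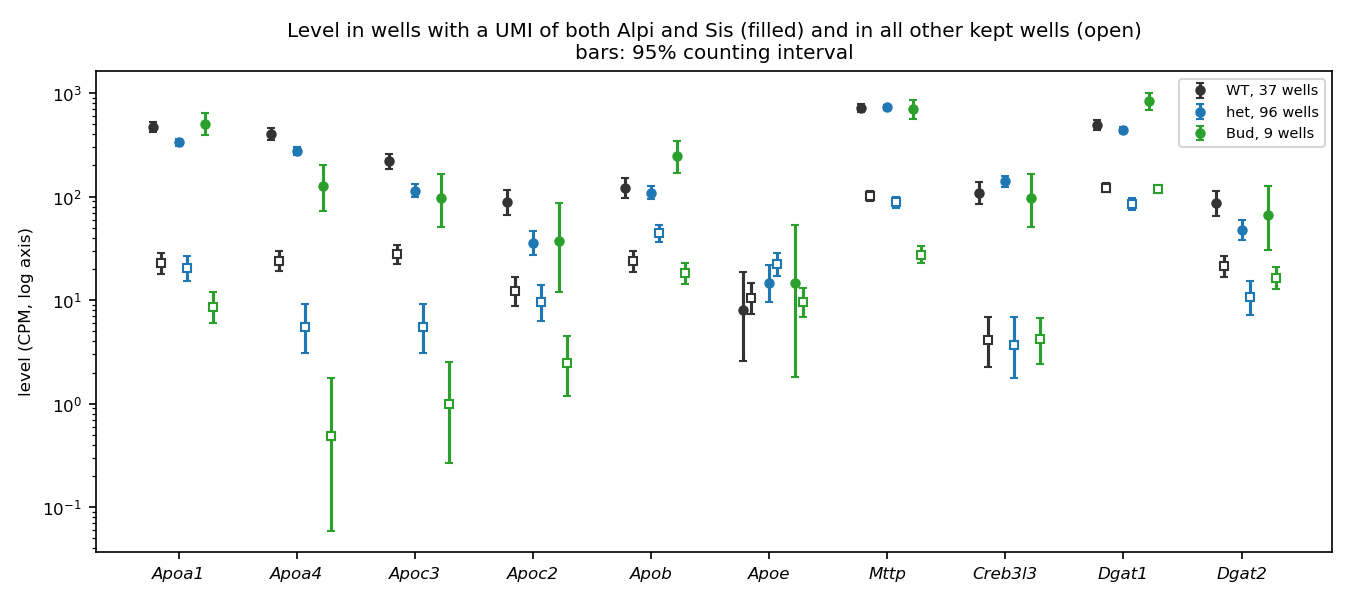
Level (CPM, log axis) of each gene in wells with a UMI of both Alpi and Sis (filled) and in all other kept wells (open) of WT, het and Bud, with bars for the 95% counting interval. Mttp stands at 721, 730 and 696 CPM in the filled points of the 3 libraries, whereas Apoe has 8.03 CPM filled and 10.5 open in WT.

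In these wells the WT level of Mttp was 721 CPM (656 to 791), the het level 730 (690 to 772) and the Bud level 696 (562 to 851), against 101, 88.1 and 27.6 in all other wells. The intervals within these wells overlapped, and the library levels of Mttp were 197, 336 and 49.1 CPM. The part of the number of such wells in the library levels was not tested. The Apoa1 level was 472 CPM for WT (420 to 529), 334 for het (307 to 363) and 503 for Bud (391 to 638), the last from 3 wells with a UMI of it. Apoa4 was lower in the Bud wells, at 126 CPM (73.3 to 201), than in WT (403, 355 to 456) and het (274, 250 to 300). Apoc3 was 218 CPM in WT (183 to 258), 114 in het (98.9 to 132) and 96.2 in Bud (51.2 to 164). Its het and Bud levels overlapped, both below WT, and the Bud level came from 13 UMIs in 4 wells. Dgat1 was higher in the Bud wells, at 829 CPM (682 to 997), than in WT (491, 438 to 550) and het (439, 408 to 472). Apob stood at 244 (168 to 343), 122 (96.2 to 153) and 109 CPM (94.0 to 126) in Bud, WT and het. Apoe was at 8.03 CPM inside (2.61 to 18.7) and 10.5 outside (7.39 to 14.6) in WT, and at 14.7 (9.54 to 21.8) and 22.2 (17.0 to 28.6) in het.

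Several values depended on how the wells were chosen. With 3 or more UMIs of Alpi and Sis together, 53 WT, 100 het and 21 Bud wells were taken. Mttp was then 604, 697 and 392 CPM, Apoa1 386, 332 and 181, Apoa4 342, 270 and 45.4, and Dgat1 425, 432 and 657. Apob was then 102 CPM in WT (81.6 to 126), 110.5 in het (95.4 to 127) and 133 in Bud (99.0 to 176), which overlapped. Apoc3 was 192 CPM in WT (164 to 224), 113 in het (97.6 to 130) and 40.0 in Bud (22.4 to 66.0), which were apart. Apoe in het was 10.4 CPM inside (6.17 to 16.5) and 25.1 outside (19.5 to 31.9), so that it was lower inside. Under both rules Apoa4 was lowest and Dgat1 highest in Bud, while the overlap of Mttp across the 3 libraries was not kept.

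Other genes of fat absorption were taken from lists of the steps around the members, and compared with WT. Of all genes tested, 8.83% were called lower and 8.43% higher in het, 8.67% and 5.79% in Bud, 22.0% and 17.6% in Cys, and 22.3% and 29.4% in fetal, and each count is to be read against these shares. Of 11 measured genes of fatty acid uptake and activation, 2 were lower (Slc27a1 and Acsl1) and 1 higher (Slc27a2) in het, 5 lower and none higher in Bud, 6 lower and 2 higher in Cys, and 6 lower and 2 higher in fetal. Fabp1 was 615 CPM in WT, 772 in het, 1.67 in Bud, 1.81 in Cys and 0 in fetal. Its relative Fabp2, which carries fatty acids in the same cells, was 228 CPM in WT and 88.4 in Bud, 2.58-fold lower, and 1.20 in Cys. Acsl4, which activates arachidonic acid, moved the other way in Cys, from 23.5 to 63.0 CPM (2.68-fold, 2.12 to 3.40), and in fetal to 180 CPM. The median log2 ratio of the list was -0.44 in Bud, -0.65 in Cys and -1.29 in fetal.

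Among 13 measured genes of triglyceride and sterol ester synthesis, 4 were lower in Bud, 6 lower and 2 higher in Cys, 6 lower and 1 higher in fetal, and none was called in het. The counts in the higher direction were near the share of all genes in Cys and below it in fetal. Mogat2, the acyltransferase of the gut monoacylglycerol route before DGAT, was 60.5 CPM in WT, 73.7 in het, 31.7 in Bud, 28.11 in Cys and 10.9 in fetal. Soat2, which esterifies cholesterol, was 51.1 CPM in WT and 33.1 in Bud (1.54-fold lower, 1.24 to 1.93), and 4.02 in Cys (12.7-fold lower). The list's median log2 ratio was -0.19 in Bud, -0.39 in Cys and -0.36 in fetal.

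Of 17 measured genes of lipoprotein loading, folding and export, 5 were higher in het and none lower (Prap1, Sec23a, Pla2g12b, Smlr1 and Apobec1). In Bud 4 were lower, in Cys 5 were lower and 4 higher, and in fetal 5 were lower and 2 higher. The Cys and fetal counts were near the shares of all genes, or below them for the higher direction in fetal. Tm6sf2, needed for lipid loading, was 78.3 CPM in WT, 52.6 in Bud (ratio 0.672, 0.563 to 0.801), 2.81 in Cys and 1.88 in fetal. Mia3, a receptor for large cargo at endoplasmic reticulum exit sites, was 86.0 CPM in WT and 167 in Cys (1.94-fold, 1.71 to 2.21). Sec24d, a coat protein of the same sites, was 1.97-fold higher in Cys (1.57 to 2.50). The other genes called higher in Cys were Mia2 and Apobec1, and those called lower were Tm6sf2, Prap1, Pla2g12b, Smlr1 and A1cf. The list's median log2 ratio was 0.25 in het, -0.22 in Bud, -0.03 in Cys and 0.01 in fetal.

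Of 11 measured lipid droplet and lipase genes, 1 was lower (Fitm2) and 2 higher (Ces1f and Ces2e) in het, 5 lower and 1 higher in Bud, 6 lower and 2 higher in Cys, and 5 lower and 1 higher in fetal. The 2 higher in Cys were near the share of all genes. The carboxylesterase Ces2e was 393 CPM in WT, 890.5 in het, 178 in Bud, 11.8 in Cys and 1.88 in fetal. Clps, the cofactor of pancreatic lipase, was the gene called higher in Bud, at 105 against 15.6 CPM. Abhd5, the activator of the adipose lipase, was 5.32-fold higher in Cys than WT (3.86 to 7.48). Of 13 measured genes of sterol transport and lipoprotein receptors, 1 was lower (Scarb1, 2.20-fold) and 2 higher (Npc1l1 and Abcg5) in het, 4 lower in Bud, and 7 lower and 1 higher in Cys, and of 14 measured in fetal 7 were lower and 3 higher (Scarb1, Lrp1 and Lcat). Npc1l1, the cholesterol importer, was 54.3 CPM in WT, 117 in het and 24.8 in Bud, and had no UMI in Cys or fetal. The median log2 ratios in Bud, Cys and fetal were -0.26, -0.23 and -0.27 for the droplet list, and -0.33, -0.66 and -0.68 for the sterol list.

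Regulators of the pathway were all measured. Of the 28, none was lower and 3 higher in het (Hnf4g, Creb3l1 and Creb3l2), 3 lower and 1 higher in Bud, 11 lower and 4 higher in Cys, and 13 lower and 7 higher in fetal. The Bud counts, and those in the higher direction in het, Cys and fetal, were near the shares of all genes. Ppara, the fatty acid sensor, was 55.5 CPM in WT, 22.4 in Bud (2.48-fold lower, 1.94 to 3.19), 0.201 in Cys and 0.1705 in fetal, on 1 UMI each in the last 2. Hnf4a, a nuclear receptor of the absorptive lineage, was 480 CPM in WT, 498 in het, 435 in Bud, 140 in Cys and 64.4 in fetal, and Hnf4g was 96.9, 192, 65.7 and 15.5 CPM in the first 4. Mlxipl, the sugar-responsive factor, was 150 CPM in WT and 3.01 in Cys. Creb3l1, a relative of the member Creb3l3, was 64.4 CPM in WT, 130 in het, 105 in Bud and 299 in Cys (4.64-fold higher than WT, 4.06 to 5.31), whereas Creb3l3 had 1 UMI in Cys. The list's median log2 ratio was -0.14 in Bud, -0.19 in Cys and -0.43 in fetal. Of 11 other genes with apolipoprotein names only 2 or 3 were measured in any comparison, Apoo and Apool among them. Apoo was called lower than WT in Cys (ratio 0.632, 0.495 to 0.804) and in fetal (0.420, 0.323 to 0.544). The shares of all genes called lower there were 22.0% and 22.3%. None of the list was called in het or Bud. Of the familiar plasma apolipoproteins Apoa2 had 4 to 11 UMIs and Apoa5 at most 1 UMI per library.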

How the data were processed

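The authors deposited, per the labels, 1 SORT-seq plate for each of 5 libraries, as tables of UMI counts per gene and well and as estimated counts corrected for repeated identifiers. Alignment builds and tools are listed in the submitters' processing notes as GRCm38, featureCounts 1.5.2, STAR 2.6.1 and Seurat 4.1.0. For strand and multi-mapping reads, the counting settings were not given in the sources used here. The deposited estimated counts equalled the value computed from the UMI counts with 4096 codes of 6 bases, with 0 values deviating by over 0.01, and served as an alternative.

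Wells with at least 1000 UMIs outside spike-ins were kept, UMIs were summed per library and given as CPM (scaled to a library total of 1000000), and doublets were not called. The 384 well codes that all libraries share are the plate layout. Intervals are exact at 95% (Poisson for levels, Clopper-Pearson for shares, conditional binomial for ratios), and a count of 0 was bounded by 3 counts per library. These cover counting error only, and those of levels and ratios leave out the spread between wells. Wells were thinned to 1000 UMIs for shares. With 1 library per group no test was made, so a call describes those libraries. The calling step was checked on simulated library sums with known ratios and Poisson error. That check holds no spread between wells and cannot speak to it.

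The members and gene lists were chosen with earlier results of these data known. Named are all 10 members, up to 4 genes of each list by size of log2 ratio among genes with at least 20 CPM, genes in small counts of calls, and the 5 genes most like a member with r of at least 0.3. Hnf4a in libraries where it fell outside this rule, and Apoa2 and Apoa5, were chosen after their values were seen. Python 3.11.15, NumPy 2.4.6, pandas 2.3.3, SciPy 1.17.1, matplotlib 3.10.9 and R 4.3.3 were used, with edgeR 4.0.16 for TMM factors only.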

Additional observations from a re-analysis of the deposited data

How the results depend on the processing

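No paired analysis was possible because each group had 1 library, and for the same reason no replicate could be left out. Of 116 counts of members called, 114 stayed within 1.5 times, including those for directions with a main count of 0, which stayed at 0. The exceptions were the members higher in het than WT, 5 at a 1.5-fold call and 1 at a 2-fold call, and the members lower in Cys than Bud, 8 with 10 UMIs per gene and 4 with 50, where fewer genes could be called. Equal weight for every well gives no counting interval and stands outside those 116: of the 5 higher in het 2 kept a ratio past 1.5-fold, of the 8 lower in Bud 7, of the 8 lower in Cys 8, of the 10 lower in fetal 9, and of the 8 lower in Cys than Bud 8. Among members not called, equal weight put Apoc3 and Dgat2 past 1.5-fold lower in het than WT, and Apoe past 1.5-fold higher in Bud than WT. No called ratio changed sign. Of 480 ratios under an alternative, 442 moved by less than their counting interval, and the 38 others came from equal weight for every well (12), het as reference (11), leaving out the highest well (9) and higher minimums of UMIs per well (3 each). TMM, median-of-ratios, the estimated counts, and leaving out wells rich in Kcnq1ot1 or over 100000 UMIs moved none of 50 ratios each. Of the levels in wells chosen by Alpi and Sis, 10 of 30 moved with the second rule, which was chosen after seeing the data. Of 190 correlations 58 moved, 29 of 95 by rank and 29 of 95 without the 5 wells with the most member UMIs (Apoa1 with Apoc3 in WT from 0.73 to 0.36 by rank). Depth limits the shares: 37 of 50 moved without thinning, 14 when thinned to 2000 UMIs and 3 with another random draw.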
